A study of Mus musculus with 40 samples.

Results

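The genes described here are 10 that encode actin or proteins that act on it: Actb, Actg1, Acta2, Cfl1, Pfn1, Tmsb4x, Tmsb10, Tpm1, Tagln and Twf1. They were taken by their symbols from the deposited table of 22417 mouse genes, and all 10 are in it. Actin is the protein of the thin filaments that give a fibroblast its shape and let it pull on its surroundings. Filaments grow from free actin monomers, which a cell keeps in a pool bound to small proteins, and shrink as cofilin severs them. Thymosin beta proteins hold monomers back from filaments, profilin hands them to growing ends, and twinfilin binds monomers and caps filament ends. Tropomyosin and transgelin lie along finished filaments. Transcription of many of these genes is known to follow the size of the free actin pool, through the factors MRTF and SRF.

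Ribosome footprints and mRNA were sequenced from mouse embryonic fibroblasts that lack GADD34 (GADD34-/-), the phosphatase subunit made from Ppp1r15a that restarts translation after stress. Cells were left untreated or were given 1 uM thapsigargin, which blocks the calcium pump of the endoplasmic reticulum (ER), for 0.5, 1, 2 or 4 h. All cells had a brief pulse of cycloheximide, which stalls ribosomes, before digitonin released the cytosol and dodecyl maltoside extracted the rest, labelled the ER fraction. The assays, fractions and times make 20 groups of 2 samples, called replicates 1 and 2, and every group carries the deletion, so none is a wild-type control. Whether the replicates are separate cultures is not in the labels, and the p-values therefore cover the spread between the samples at hand, which may be technical.

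The column for ER footprints at 0.5 h, replicate 2, is empty, which leaves 39 libraries. Values are RPKM, reads scaled by coding length and by library size, and a gene without a value was read as not measured. The reads recovered from these values came to between 56868 and 9607466 per ER footprint library and between 122249 and 5389247 per cytosol footprint library. In mRNA libraries they came to between 1502 and 162087 in the ER and between 48218 and 315689 in the cytosol, and the 10 highest genes held 35.2% to 79.2% of the RPKM there. Ppp1r15a itself was listed in 2 of 39 libraries, with 5 and 14 reads. All 12 genes for ER proteins tested were higher in ER than in cytosol footprints of untreated cells, and their summed cytosol level was 56.9 to 1664 RPKM in untreated cells and 2782 to 14415 RPKM after thapsigargin. The part of this in the fraction ratios below was not tested. Of 10 fibroblast markers 9 were listed in footprints, with Vim, Col1a1 and Col1a2 in 19 of 19 libraries and Thy1 in 0, and each marker of macrophages, epithelium and endothelium was listed in at most 1. Bulk samples cannot tell fewer cells of a type from less RNA per cell.

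Footprint levels of 9 of the 10 genes were among the highest of all genes, and that of Twf1 was not. In footprint libraries Actb ranked between 1 and 25 of all genes by RPKM, with a median rank of 5, and Tmsb10 between 1 and 12, with a median of 3. Tmsb4x ranked between 1 and 54 (median 11), and Twf1 between 945 and 5207 in the 15 footprint libraries that listed it. Together the 10 genes held 2.74% to 5.84% of the recovered reads in ER footprints and 3.2% to 7.86% in cytosol footprints. In mRNA they held 0.266% to 0.652% in the ER and 0.178% to 1.65% in the cytosol.

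Untreated cytosol footprints put Actb first, at 11814 ± 6572 RPKM (SD, n = 2). Below it came Tmsb4x at 7796 ± 5644, Actg1 at 5353 ± 1111 and Tmsb10 at 4232 ± 781 RPKM. Next were Acta2 at 4089 ± 1912, Cfl1 at 3069.9 ± 1323, Tagln at 2665 ± 523 and Tpm1 at 2578 ± 715 RPKM. The replicate ranges of each of these neighbours overlapped, so their order is not resolved. Pfn1 at 963 ± 174 RPKM lay apart below Tpm1, and Twf1 at 103 ± 17.3 RPKM apart below Pfn1. In untreated ER footprints Actb led at 4219.9 ± 165 RPKM, apart from Tmsb10 at 3157 ± 623, and Twf1 was again the lowest at 29 ± 15 RPKM.

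**Figure D1:**
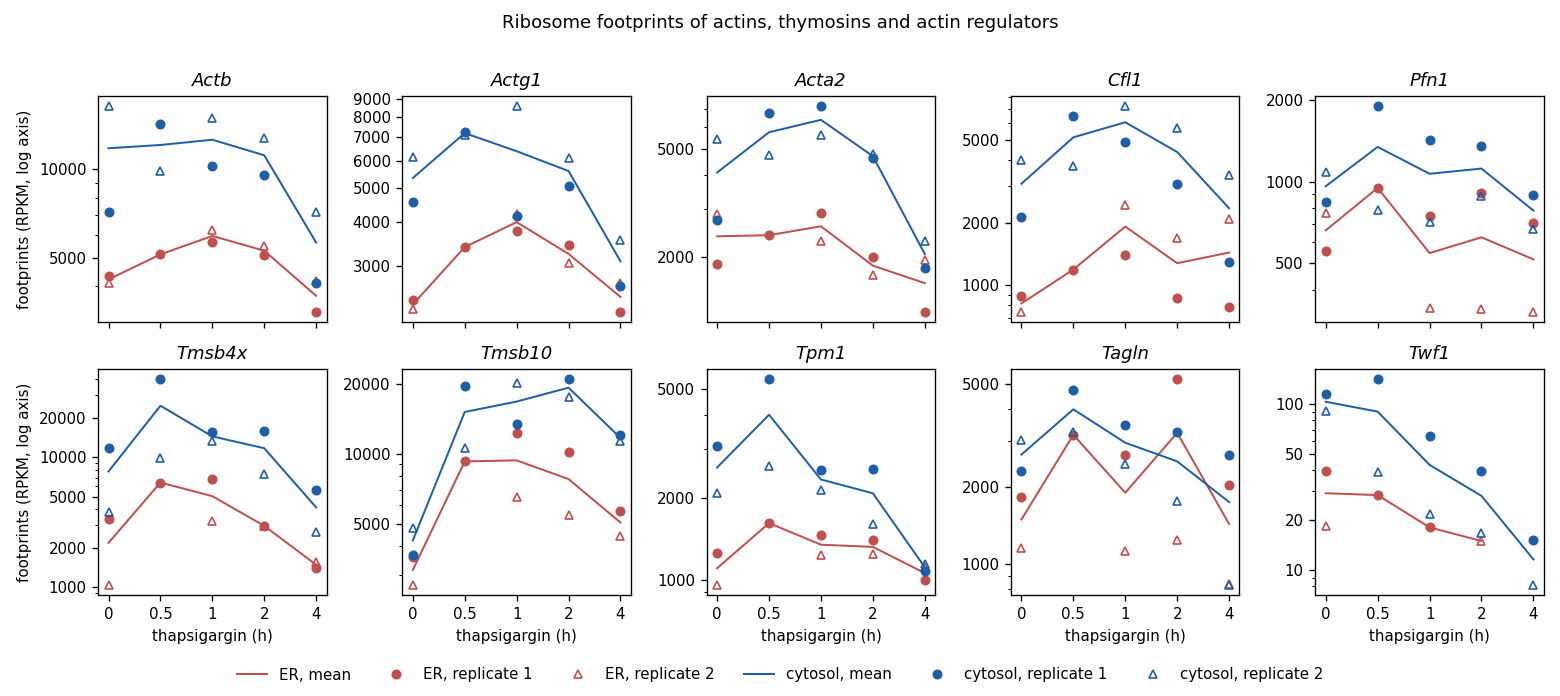
Ribosome footprints in RPKM (log axis) of each gene against hours of thapsigargin, with 0 for untreated cells. Red marks the ER and blue the cytosol, filled circles replicate 1, open triangles replicate 2, and lines the mean of the libraries that list the gene. Tmsb10 stands above its untreated libraries at every time in both fractions, and Twf1 in the cytosol goes down to 15.1 and 8.1 RPKM at 4 h.

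Actb and Actg1 encode the actins of nonmuscle cells, and Acta2 the actin of smooth muscle, which cultured fibroblasts also make. The coding sequences of actin isoforms are close to identical over long stretches, and how reads that match several genes were handled is not given in the sources used here, so the split between isoforms is uncertain. Actb footprints in the ER were 4337 and 4103 RPKM in untreated cells, 5135 at 0.5 h, 5651 and 6219.8 at 1 h, 5102 and 5469 at 2 h and 3266 and 4153 at 4 h. Both ER libraries at 1 h and both at 2 h lay above both untreated ones, and the libraries at 4 h overlapped them. At 1 h this held for 29% of 3633 genes, and the share at 2 h was not counted. In the cytosol Actb was 7166 and 16461 RPKM in untreated cells, 14339.7 and 9901 at 0.5 h, 10291 and 14967 at 1 h, 9568 and 12787 at 2 h and 4087 and 7179 at 4 h. The untreated cytosol libraries differed more from each other than any treated pair, and at 4 h the higher library reached the lower untreated one. The log2 change of the mean of 1, 2 and 4 h against untreated cells was 0.21 (SE 0.29, adjusted p = 0.609) in the ER and -0.26 (SE 0.45, adjusted p = 0.709) in the cytosol, neither past the threshold of 0.05.

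Actg1 footprints were 2388 and 2263 RPKM in untreated cells, 3394 at 0.5 h, 3773 and 4229.6 at 1 h, 3442 and 3049 at 2 h and 2212 and 2674 at 4 h in the ER. They were 4567 and 6138 RPKM in untreated cells, 7274 and 7124 at 0.5 h, 4168 and 8606 at 1 h, 5082 and 6127 at 2 h and 2628 and 3552 at 4 h in the cytosol. Both ER libraries at 1 h and both at 2 h again lay above both untreated ones, and both cytosol libraries at 4 h lay below both untreated ones. Its log2 change over 1, 2 and 4 h was 0.44 (SE 0.29, adjusted p = 0.256) in the ER and -0.18 (SE 0.39, adjusted p = 0.776) in the cytosol.

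Acta2 footprints in the ER were 1877 and 2885 RPKM in untreated cells, 2404 at 0.5 h, 2895 and 2289 at 1 h, 2005 and 1710.1 at 2 h and 1253 and 1950.1 at 4 h. In the cytosol they were 2737 and 5441 RPKM in untreated cells, 6747 and 4755 at 0.5 h, 7184 and 5595 at 1 h, 4622 and 4767 at 2 h and 1819 and 2279 at 4 h. Both cytosol libraries lay above both untreated ones at 1 h and below both at 4 h, while in the ER the groups overlapped at 1, 2 and 4 h. The Acta2 change was -0.25 (SE 0.33, adjusted p = 0.576) in the ER and 0.03 (SE 0.39, adjusted p = 0.968) in the cytosol. Acta1, the actin of skeletal muscle, had a median of 325 RPKM over 19 footprint libraries and a highest value of 1851. As an actin isoform it shares the uncertainty about reads that match several genes. Other genes of smooth muscle were lower. Over the libraries that listed them, medians were 78.4 RPKM for Cnn1, 70.3 for Actg2, 24.4 for Smtn, 11.3 for Lmod1, 3.28 for Myh11 and 1.75 for Synpo2. Des and Myocd were listed in 0 of 19.

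SRF, through which free actin is known to act on many of these genes, binds a site called the CArG box. Promoters were searched for it because Actb and Actg1 had similar footprint profiles, which do not measure transcription. RefSeq promoters of GRCm38.p6, from 250 bases before to 50 after a gene's start, matched 8 of 10 members with 10 promoters. Actb and Tagln had no entry, so the search cannot compare Actb with Actg1. The box was searched on both strands only in its exact form, CC, a run of A and T, then GG. Variant forms were not searched, so a gene without a match may still hold one. The exact box lay in 1 of the 8 genes, Actg1, and in 1.63% of all 32851 promoters of this length. A match is a description of the letters and no measured binding. The 250 bases before the start of Actg1, at chr11:120348496-120348745 on the minus strand, hold it from 90 to 81 bases before the start, shown in capitals.
Actg1 promoter: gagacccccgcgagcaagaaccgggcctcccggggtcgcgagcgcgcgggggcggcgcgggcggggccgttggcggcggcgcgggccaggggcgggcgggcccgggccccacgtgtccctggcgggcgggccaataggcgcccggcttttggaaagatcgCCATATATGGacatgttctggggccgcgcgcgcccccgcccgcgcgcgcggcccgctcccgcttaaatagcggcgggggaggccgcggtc

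Tmsb10 was the member that rose in both fractions. It encodes thymosin beta 10 and Tmsb4x thymosin beta 4, both small proteins that bind actin monomers one to one. Tmsb10 footprints in the ER were 3598 and 2717 RPKM in untreated cells, 9259 at 0.5 h, 12221 and 6496 at 1 h, 10119 and 5425 at 2 h and 5678 and 4429 at 4 h. In the cytosol they were 3679.9 and 4784 RPKM in untreated cells, 19614 and 10614 at 0.5 h, 13399 and 20121 at 1 h, 20937 and 17521 at 2 h and 12001 and 11361 at 4 h. Every treated library of either fraction, 7 in the ER and 8 in the cytosol, was above both untreated libraries of that fraction. The share of all genes that did so at every time was not counted. At single times both libraries lay above for 29% of 3633 genes in the ER at 1 h. In the cytosol they did for 19.4% of 6247 genes at 1 h and 24.7% of 4607 at 4 h. Over 1, 2 and 4 h Tmsb10 rose by 1.15 (SE 0.36, limma adjusted p = 0.0297) on the log2 scale in ER footprints and by 1.88 (SE 0.39, limma adjusted p = 0.0123) in those of the cytosol. As a ratio of group means the cytosol rise was 3.57 times at 0.5 h, 3.96 at 1 h, 4.54 at 2 h and 2.76 at 4 h, and the largest ER ratio was 2.96 at 1 h. The change was positive within each replicate, at 2.03 and 1.73 in the cytosol and 1.30 and 0.99 in the ER. The call was lost without either untreated library, with adjusted p of 0.104 and 0.244 for ER footprints and of 0.0837 and 0.0812 for cytosol footprints, and in the ER also without replicate 1 at 2 h (0.0646) or 4 h (0.0625). Where blanks were read as 0 it was lost too, with adjusted p of 0.119 and 0.0642.

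Tmsb4x footprints were highest at 0.5 or 1 h in each replicate of both fractions and varied widely between replicates. In the ER they were 3359 and 1039 RPKM in untreated cells, 6406 at 0.5 h, 6839.5 and 3222 at 1 h, 2989 and 2958 at 2 h and 1406 and 1574 at 4 h. In the cytosol they were 11787 and 3805 RPKM in untreated cells, 40075 and 9926 at 0.5 h, 15729 and 13296 at 1 h, 16045 and 7492 at 2 h and 5571 and 2669.9 at 4 h. The untreated libraries differed by about a factor of 3 in each fraction, and treated and untreated libraries overlapped in the ER at 1, 2 and 4 h and in the cytosol at all times but 1 h. The change over 1, 2 and 4 h was 0.56 (SE 0.44, adjusted p = 0.345) in the ER and 0.34 (SE 0.65, adjusted p = 0.736) in the cytosol. Without untreated replicate 2 it was -0.29 and -0.47, and without untreated replicate 1 it was 1.40 and 1.16.

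Twf1 encodes twinfilin 1, and its footprints in the cytosol fell after thapsigargin. They were 115 and 90.9 RPKM in untreated cells, 141 and 38.7 at 0.5 h, 64.2 and 21.8 at 1 h, 39.3 and 16.6 at 2 h and 15.1 and 8.12 at 4 h. Behind the untreated values stood 63 and 955 reads, and behind those at 4 h 4 and 10, so the latest values carry large counting error, and 4 reads is the smallest number a footprint library lists. Both libraries at 1, 2 and 4 h lay below both untreated ones, while at 0.5 h they lay on either side. At 4 h 32.3% of 4607 genes lay below, and the share that did so at all of these times was not counted. The log2 change over 1, 2 and 4 h was -2.16 (SE 0.59, limma adjusted p = 0.034), and the ratio of group means was 0.417 at 1 h, 0.271 at 2 h and 0.113 at 4 h. Within replicates the change was -1.74 and -2.58. The call was lost without either untreated library (adjusted p of 0.137 and 0.132), without replicate 2 at 1, 2 or 4 h (0.065 to 0.069), and where blanks were read as 0 (0.0969). In the ER Twf1 was 39.6 and 18.4 RPKM in untreated cells, 28.3 at 0.5 h, 18.1 in replicate 1 at 1 h and 15 in replicate 2 at 2 h. No ER library at 4 h listed it, and it could not be tested there.

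Cfl1 and Pfn1 differed between replicates in the ER. Cfl1 encodes cofilin 1, which severs filaments, and Pfn1 encodes profilin 1. Cfl1 footprints in the ER were 892 and 744 RPKM in untreated cells, 1190.4 at 0.5 h, 1390.3 and 2436 at 1 h, 869.6 and 1683 at 2 h and 783 and 2088 at 4 h. Replicate 2 stood above both untreated libraries at 1, 2 and 4 h, and replicate 1 only at 0.5 and 1 h. The log2 change was 0.14 within replicate 1 and 1.46 within replicate 2, and 0.80 (SE 0.42, adjusted p = 0.164) in the fit. In the cytosol Cfl1 was 2134 and 4006 RPKM in untreated cells, 6518 and 3735 at 0.5 h, 4857 and 7246 at 1 h, 3046 and 5671 at 2 h and 1286 and 3398 at 4 h, with a change of 0.35 (SE 0.50, adjusted p = 0.652). Pfn1 footprints in the ER were 556 and 768 RPKM in untreated cells, 949 at 0.5 h, 749.9 and 341 at 1 h, 908 and 339 at 2 h and 704 and 330.4 at 4 h. Its change had opposite signs in the 2 replicates, at 0.49 and -1.19 in the ER. Cytosol footprints of Pfn1 were 839.8 and 1086 RPKM in untreated cells, 1905 and 785 at 0.5 h, 1432 and 709 at 1 h, 1353 and 885 at 2 h and 894 and 672 at 4 h, and their change was 0.52 within replicate 1 and -0.53 within replicate 2. The fit gave -0.35 (SE 0.46, adjusted p = 0.583) for ER and -0.01 (SE 0.45, adjusted p = 0.99) for cytosol footprints.

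Tpm1, a tropomyosin that stabilises filaments, was 1250.2 and 957 RPKM in untreated cells, 1614 at 0.5 h, 1462 and 1229 at 1 h, 1400.2 and 1242 at 2 h and 1001 and 1118 at 4 h in ER footprints. In the cytosol it was 3083 and 2072 RPKM in untreated cells, 5427 and 2613 at 0.5 h, 2525 and 2135 at 1 h, 2545 and 1603 at 2 h and 1079 and 1147 at 4 h, and the libraries at 2 h overlapped the untreated ones while both at 4 h lay below them. Its change was 0.17 (SE 0.30, adjusted p = 0.682) in the ER and -0.54 (SE 0.40, adjusted p = 0.361) in the cytosol. Tagln, which encodes transgelin, a calponin-related protein of contractile cells, was 1826 and 1156 RPKM in untreated cells, 3182 at 0.5 h, 2664 and 1126 at 1 h, 5239 and 1239 at 2 h and 2024 and 839 at 4 h in ER footprints. In the cytosol Tagln was 2295 and 3035 RPKM in untreated cells, 4738 and 3257 at 0.5 h, 3481 and 2446 at 1 h, 3261 and 1757 at 2 h and 2658 and 828 at 4 h. Replicate 1 lay above replicate 2 in the ER at each time that has both, and the change over 1, 2 and 4 h was 0.44 in replicate 1 and -0.99 in replicate 2 of the cytosol. The fit gave 0.30 (SE 0.54, adjusted p = 0.696) in the ER and -0.28 (SE 0.49, adjusted p = 0.722) in the cytosol.

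Across the members, 1 of 9 tested rose in ER footprints and 0 fell, beside 20% up and 13.3% down of all 2241 genes tested. In cytosol footprints 1 of 10 rose and 1 fell, beside 9.8% up and 8.93% down of 4123 genes, so the share of members called was near that of all genes. At 1 h both libraries lay above both untreated ones for 4 of 9 members in the ER (Actb, Actg1, Cfl1 and Tmsb10), beside 29% of 3633 genes, and for 4 of 10 in the cytosol (Acta2, Cfl1, Tmsb4x and Tmsb10), beside 19.4% of 6247 genes. The median log2 change was 0.30 for the members and 0.14 for all genes in the ER. For cytosol footprints the medians were -0.09 and -0.10. The ER-to-cytosol ratio of 0 of 9 members changed past the threshold, beside 8.65% of 2046 genes, and the lowest unadjusted p of the 9 was 0.148, for Tpm1.

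**Figure D2:**
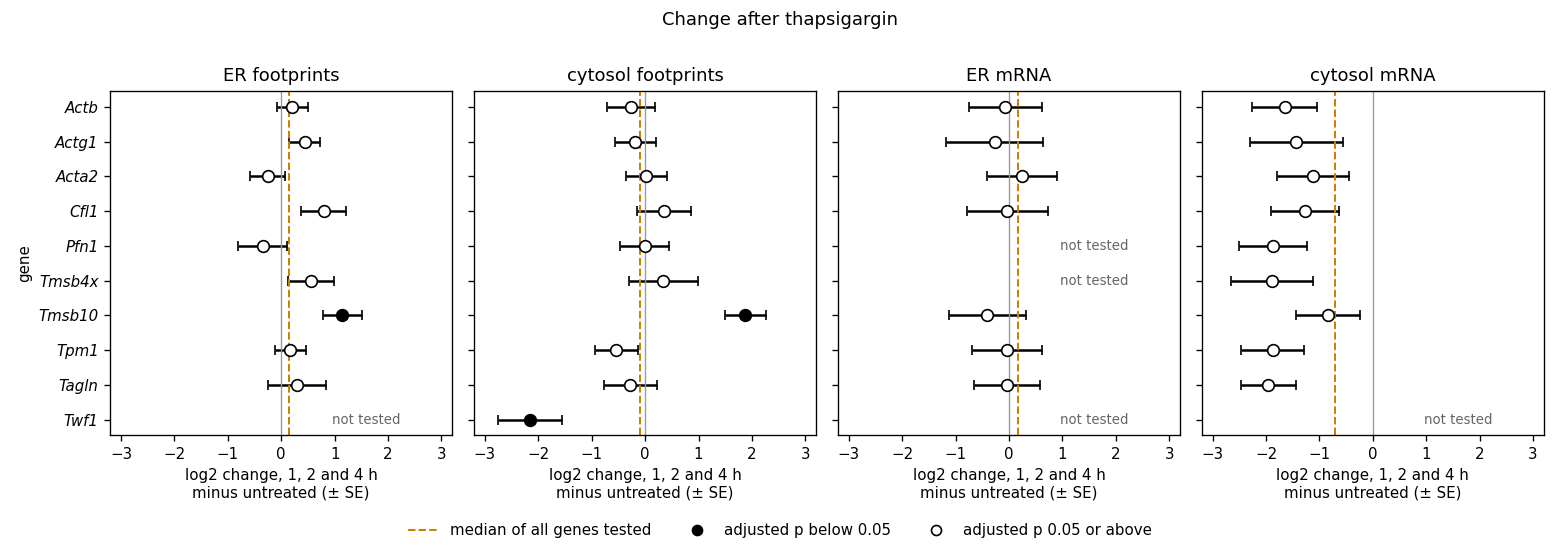
Log2 change of each gene, as the mean of 1, 2 and 4 h minus untreated on log2(RPKM + 1), with its standard error, in the 4 sets of libraries. Filled points have an adjusted p below 0.05, and the dashed line is the median of all genes tested. Tmsb10 is filled in both footprint panels and Twf1 in the cytosol panel, and all 9 genes tested in cytosol mRNA lie below 0.

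Footprints of the members were lower at 4 h than at 1 h in both fractions, with none past the threshold. This comparison was added after the data had been seen. In the cytosol all 10 members had negative values, with log2 changes from -1.91 for Tmsb4x and -1.67 for Twf1 to -0.49 for Tmsb10 and -0.38 for Pfn1. Their median was -1.13, beside -0.09 for all 5165 genes. By limma's adjusted p 0 of 10 members were called, as were 0% of all genes, and 266 genes had an unadjusted p under 0.05, among them Acta2 (0.00765), Cfl1 (0.0379), Tmsb4x (0.0389) and Twf1 (0.0449). In the ER 9 of 9 members had negative values, with a median of -0.69 beside 0.45 for all 2608 genes, and 0 were called, beside 0.23% of all genes. The median of all genes depends on the processing. In the ER it was 0.08 with median centring, 0.23 with libraries scaled to their own totals and 0 with blanks read as 0. In the cytosol it was 0.08, 0.18 and -0.48 in the same order. The lowest ER value was that of Tmsb4x, at -1.66 (SE 0.53, adjusted p = 0.138). The signs were the same with median centring and with each library scaled to its own total, but not without single libraries in the ER for Cfl1, Pfn1 and Tagln and in the cytosol for Pfn1. Within replicates the cytosol change of Actb was -1.33 and -1.06, that of Acta2 -1.98 and -1.30, and that of Tmsb4x -1.50 and -2.32, beside -0.01 and -0.07 for the median gene. Against untreated cells, 4 of 10 members had both cytosol libraries at 4 h below both untreated ones, namely Actg1, Acta2, Tpm1 and Twf1, beside 32.3% of 4607 genes, and 1 of 10, Tmsb10, had both above, beside 24.7%.

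Actin and its partners are made on free ribosomes, and their footprints were mostly higher in the cytosol than in the ER fraction. Over libraries of the same time and number, which the labels do not say came from the same cells, 84 of 86 ratios of ER to cytosol footprints were below 1, with a median of 0.487 and a range of 0.160 to 1.61. The median gene of all genes was also below 1 up to 2 h, at 0.544 to 0.922, and was at 1.09 and 1.16 at 4 h. The share of all genes below 1 was not counted, so the count alone does not set the members apart. The 2 member ratios above 1 were both Tagln, at 1.61 and 0.706 at 2 h and 0.761 and 1.01 at 4 h for replicates 1 and 2. In untreated cells the ratio was 0.605 and 0.249 for Actb, 0.418 and 0.186 for Cfl1 and 0.285 and 0.273 for Tmsb4x, beside 0.544 and 0.626 for the median gene. The log2 ratio of Actb, lower in the ER, was -1.36 (SE 0.45, limma adjusted p = 0.0498). In this fit, which leaves out the replicate number, Actb was the only member called, of 10, beside 8.64% of 5786 genes lower and 8.04% higher in the ER. The other 9 were also negative, from -1.88 for Twf1 and -1.84 for Cfl1 to -0.42 for Tmsb10, and the member median was -1.20 beside -0.79 for all genes. The Actb call was lost in 7 of 10 alternatives, among them median centring (adjusted p = 0.162), each library scaled to its own total (0.112), and the fits without either untreated ER library (0.138 and 0.266) or without untreated cytosol replicate 2 (0.314). Its log2 ratio was -1.96 without untreated cytosol replicate 1 and -0.76 without replicate 2. With a pseudocount of 0.1, 2 members were called. The count of members called depends on the fit. With the replicate number as a block, more members and 1828 genes were called, 1319 of those genes lower in the ER. No label pairs the fractions by number, but their values appear to be scaled together. Deviations of the same number and time correlated between the fractions at 0.04 to 0.45.

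At 4 h the ratios lay closer to 1, for the members and for other genes. The median ratio of the members was 0.563 and 0.375 in untreated replicates 1 and 2 and 0.761 and 0.614 at 4 h. For the median gene it was 0.544 and 0.626 in untreated cells and 1.09 and 1.16 at 4 h. The change of the ratio over 1, 2 and 4 h was positive for 6 of the 9 members tested, led by Tpm1 at 0.71 (SE 0.47, adjusted p = 0.404) and Actg1 at 0.62 (SE 0.44, adjusted p = 0.448). Tmsb10 had the most negative value, at -0.73 (SE 0.52, adjusted p = 0.45).

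**Figure D3:**
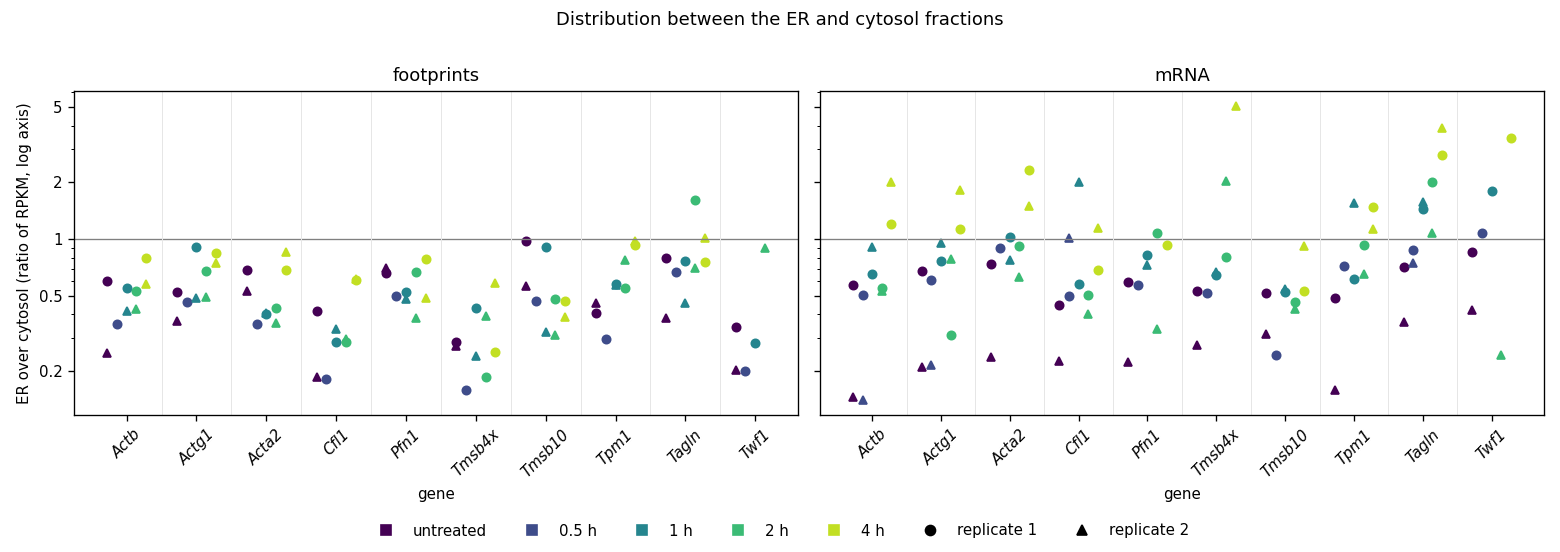
Ratio of RPKM in the ER to RPKM in the cytosol (log axis) for each gene, in footprints on the left and mRNA on the right, coloured by time, with circles for replicate 1 and triangles for replicate 2. The grey line is a ratio of 1. Footprint ratios lie below 1 in 84 of 86 cases and mRNA ratios in 64 of 89. Footprint ratios of the median gene, not drawn, run from 0.544 in untreated replicate 1 to 1.16 in replicate 2 at 4 h. At 4 h the ratios of Actb, Actg1, Acta2, Tpm1 and Tagln in mRNA are above 1 in both replicates. The median gene of all genes, not drawn, then has mRNA ratios of 2.16 and 1.69.

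Cytosol mRNA of every member was lower at 4 h than in untreated cells, and none passed the test over 1, 2 and 4 h. Actb mRNA there was 938 and 2849 RPKM in untreated cells, 866 and 1426 at 0.5 h, 719 and 874 at 1 h, 472 and 969 at 2 h and 275 and 246 at 4 h. Tmsb4x mRNA was 378 and 1921 RPKM in untreated cells, 557 and 1085 at 0.5 h, 413 and 616 at 1 h, 323 and 245 at 2 h and 168 and 44.5 at 4 h. Tagln mRNA was 549.7 and 1091 RPKM in untreated cells, 516 and 494 at 0.5 h, 306 and 246 at 1 h, 199 and 293 at 2 h and 109 and 128 at 4 h. At 4 h both libraries of all 10 members lay below both untreated libraries, beside 44.2% of 2185 genes listed in all 4 libraries. The log2 change over 1, 2 and 4 h was negative for the 9 members tested, from -1.96 (SE 0.52, adjusted p = 0.287) for Tagln to -0.85 (SE 0.60, adjusted p = 0.516) for Tmsb10. Their median was -1.65, beside -0.71 for all 1605 genes, and 0 members were called, as were 0% of all genes. That count depends on the fit. With the replicate number as a block, 378 genes were called, most of the members tested among them. No label says that these numbers pair the samples. By unadjusted p 226 genes were under 0.05, including Tagln, Tpm1, Pfn1, Actb and Tmsb4x (0.00403 to 0.0362). With median centring the values were still negative for all 9, from -1.37 to -0.26.

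The untreated cytosol mRNA library of replicate 2 stood apart from the rest. It had the fewest reads of the cytosol mRNA libraries, 48218, and its 10 highest genes held 52.5% of its RPKM, beside 65.8% to 79.2% in the other cytosol mRNA libraries. Without it the member median was -0.71, with values from -1.46 to -0.05, and without untreated replicate 1 it was -2.45. The mRNA replicates were also listed differently, from 4 reads in replicate 1 and from 1 read in replicate 2. Within replicate 1 the change was -1.05 for Actb, -1.54 for Tagln and -0.37 for Tmsb10, beside -0.46 for the median gene. Within replicate 2 it was -2.26, -2.37 and -1.32, beside -0.89. The part of these differences between libraries in the pooled change was otherwise not tested.

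**Figure D4:**
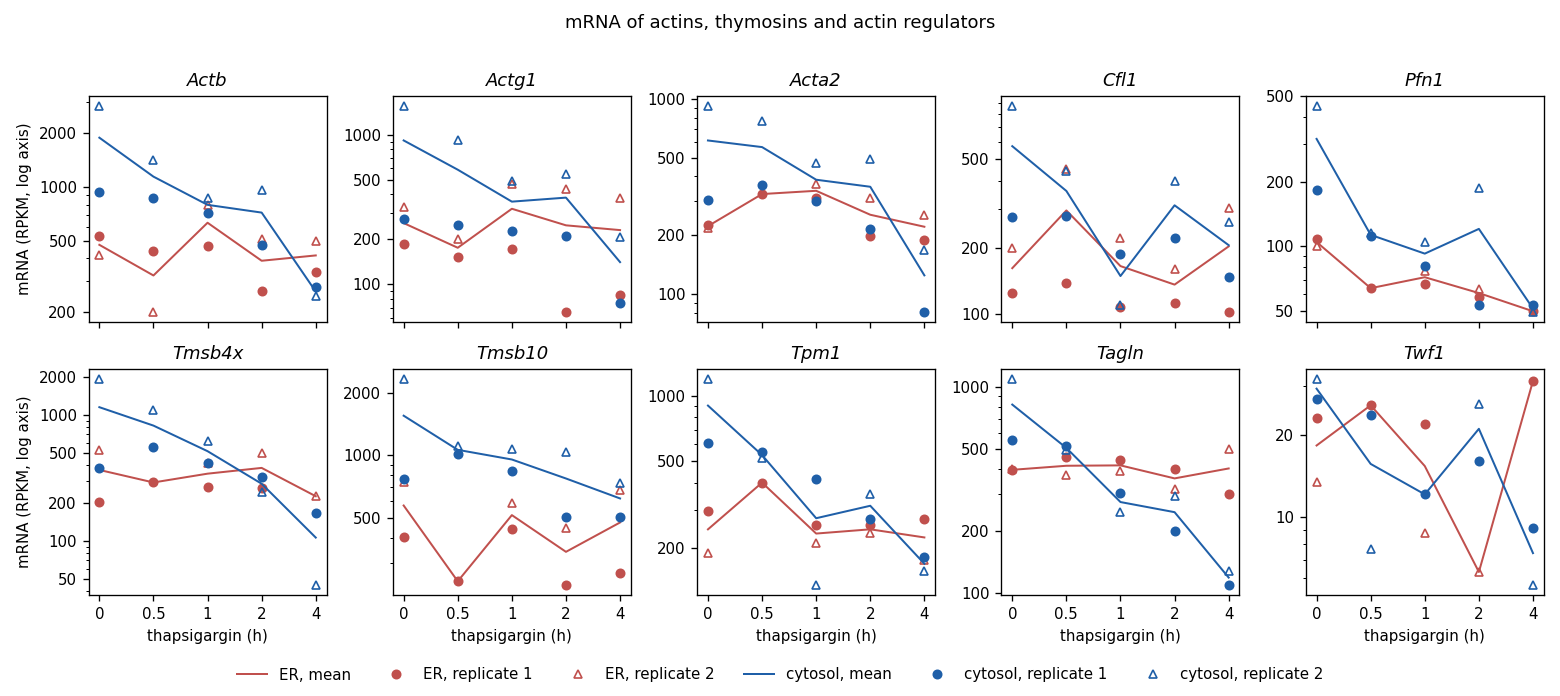
mRNA in RPKM (log axis) of each gene against hours of thapsigargin, with the marks of the plot of footprints. In the cytosol (blue) all 10 genes are below both untreated libraries at 4 h, and in the ER (red) Actb and Tagln overlap their untreated libraries at 1, 2 and 4 h.

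In the ER, mRNA of Actb and Tagln overlapped the untreated libraries at 1, 2 and 4 h, and that of Pfn1 did not. Actb was 536 and 415 RPKM in untreated cells, 441 and 199.9 at 0.5 h, 469.7 and 795 at 1 h, 261 and 514 at 2 h and 333 and 497 at 4 h. The value at 0.5 h in replicate 2 rests on 1 read, as does that of Tagln, since that library holds 1502 reads. Tagln mRNA was 392 and 398 RPKM in untreated cells, 455 and 372 at 0.5 h, 442 and 389 at 1 h, 399 and 319 at 2 h and 303 and 500.1 at 4 h. Pfn1 was 109 and 101 RPKM in untreated cells, 63.8 in replicate 1 at 0.5 h, 67.0 and 76.6 at 1 h, 58.1 and 63.1 at 2 h and 49.8 in replicate 1 at 4 h. Each treated Pfn1 value was below both untreated ones, on 4 to 17 reads per library, and Pfn1 could not be tested there. Of the 7 members tested 0 were called, beside 0% of 1129 genes, of which 11 had an unadjusted p under 0.05. The values ran from -0.40 (SE 0.72, adjusted p = 0.998) for Tmsb10 to 0.24 (SE 0.65, adjusted p = 0.998) for Acta2, with a median of -0.04 beside 0.16 for all genes. Within replicate 1 all 8 members with values were negative, with a median of -0.31, and within replicate 2 the median was 0.13. Pfn1, Tmsb4x and Twf1 lacked a value in at least 1 library. The mRNA ratio of ER to cytosol was below 1 in 64 of 89 cases, with a median of 0.692. At 4 h it was 1.21 and 2.02 for Actb and 2.78 and 3.91 for Tagln, compared with 0.572 and 0.146 and 0.714 and 0.365 in untreated cells. The ratio of the median gene also rose, from 1.03 and 0.528 in untreated cells to 2.16 and 1.69 at 4 h.

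Footprints per mRNA, the ratio of their RPKM in 1 fraction at 1 time and number, was high for 9 of the 10 genes. Each ratio was ranked among the 1897 to 6002 genes with a value in both libraries of its pair, so genes with too few reads to be listed are left out. Leaving out Twf1, every ratio was above that of the median gene of its library pair. The median percentile among the genes ranked lay between 88.9 (Tpm1) and 98.7 (Actg1) in the ER and between 83.4 (Tpm1) and 99.1 (Tmsb4x) in the cytosol. For Twf1 it was 53.2 in the ER and 72.5 in the cytosol. In the cytosol Tmsb10 had 4.77 and 2.05 footprint RPKM per mRNA RPKM in untreated cells, 19.4 and 9.52 at 0.5 h, 15.9 and 18.8 at 1 h, 41.4 and 16.9 at 2 h and 23.9 and 15.5 at 4 h. All 8 treated ratios were above both untreated ones. For the median gene the cytosol ratio was 1.99 and 0.942 in untreated cells, 2.15 and 1.84 at 1 h and 2.97 and 2.01 at 4 h. Actb had 7.64 and 5.78 in untreated cells, 14.3 and 17.1 at 1 h and 14.9 and 29.2 at 4 h, and Twf1 4.27 and 2.85 in untreated cells and 1.65 and 1.43 at 4 h.

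The change of this ratio, tested as footprints minus mRNA, was positive in the cytosol for all 9 members tested. It ran from 1.15 (SE 0.78, adjusted p = 0.809) for Acta2 to 2.72 (SE 0.68, adjusted p = 0.246) for Tmsb10, with a median of 1.62 beside 0.27 for all 1282 genes. By adjusted p 0 members were called, beside 0.078% of all genes, of which 98 had an unadjusted p under 0.05. This comparison uses the same libraries as those of cytosol footprints and cytosol mRNA above, and without untreated mRNA replicate 2 the member median was 0.85 and without replicate 1 it was 2.44. Within replicate 1 the change was positive for 9 of 10 members (median 1.0), with Twf1 at -0.65, and within replicate 2 for 9 of 9 (median 1.93). The median gene of all genes changed by 0.47 in replicate 1 and by 0.84 in replicate 2. In the ER 6 of 7 members were positive, from -0.49 (SE 0.64, adjusted p = 0.814) for Acta2 to 1.55 (SE 0.75, adjusted p = 0.498) for Tmsb10, and the median was 0.34 beside -0.56 for all 679 genes. Within replicate 1 the ER change was positive for 8 of 8 members and within replicate 2 for 5 of 8. There 0 members were called, beside 0% of all genes, and 68 genes had an unadjusted p under 0.05.

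**Figure D5:**
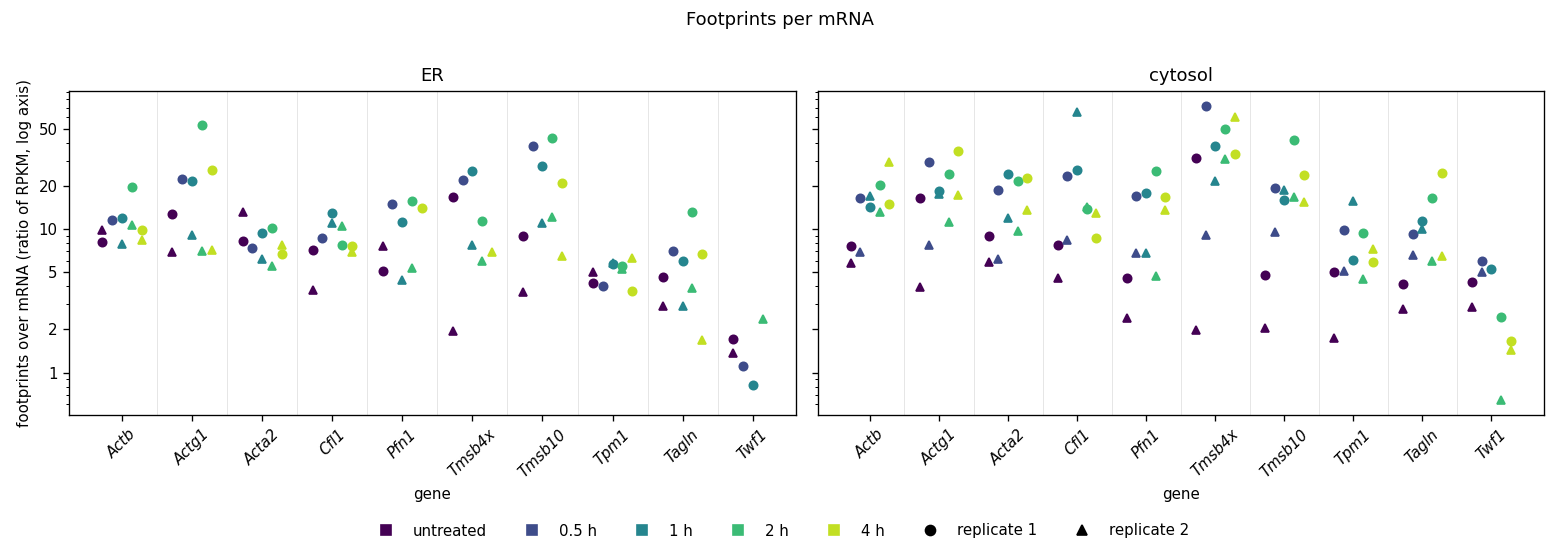
Footprint RPKM over mRNA RPKM (log axis) of each gene, in the ER on the left and the cytosol on the right, coloured by time, with circles for replicate 1 and triangles for replicate 2. The lowest ratio of each panel belongs to Twf1, and the treated cytosol ratios of Tmsb10 lie above its untreated ratios of 4.77 and 2.05.

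In cytosol footprints 6 of 7 lists of other actin genes held genes that fell and none that rose, beside 8.93% of all genes down and 9.8% up. The lists were Arp2/3 subunits, filament turnover and capping, nucleation and elongation, crosslinkers, other tropomyosins and calponins, nonmuscle myosin II, and focal adhesions. Of the Arp2/3 complex, which starts filament branches, 2 of 7 tested fell and 0 rose, Arpc2 at -1.78 and Arpc1b at -1.56. Among genes of turnover and capping 4 of 13 fell and 0 rose: Capza2, a subunit of capping protein, at -1.75, Coro1c at -1.48, Wdr1, a cofactor of cofilin, at -1.42, and Gsn, gelsolin, at -1.11. Focal adhesion genes gave 3 of 13 down and 0 up, led by talin, Tln1, at -2.43, with Parva at -1.39 and Pdlim5 at -1.21. Nonmuscle myosin II gave 2 of 8 down, the heavy chain Myh9 at -1.49 and the phosphatase subunit Ppp1r12a at -1.48.

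Crosslinkers and membrane linkers moved both ways in the cytosol, with 4 of 19 down. The falls were those of Rdx (-1.86), Swap70 (-1.26), Ezr (-1.25) and Msn (-1.0), of which Rdx, Ezr and Msn are the ERM linkers to the membrane. Iqgap1 (1.77) and Marcks (1.38) were among those that rose. Single genes fell in the remaining lists: Wasf2 of 5 for nucleation (-1.74) and Cnn3 of 8 tropomyosins and calponins (-1.70). The median log2 changes of these 7 lists lay between -1.03 and -0.30, beside -0.09 for the members and -0.10 for all genes.

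In ER footprints the same lists gave fewer tested genes. Over all 2241 genes tested there, 13.3% fell and 20% rose. Focal adhesion genes gave 3 of 8 down, with Vcl, vinculin, at -1.95, Tln1 at -1.12 and Zyx at -0.97. Tropomyosins and calponins gave 2 of 7 down, Cnn3 (-1.82) and Cnn2 (-1.19), and 1 up, Tagln2 (1.02), a close relative of Tagln. Arpc2 (-1.62), Wdr1 (-1.14) and the crosslinker Actn4 (-1.36) fell. The myosin light chain Myl6 (1.15) rose.

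In untreated cells genes of these lists differed between the fractions in both directions, beside 8.64% of all 5786 genes lower and 8.04% higher in the ER. Dstn (-2.09), Capza1 (-1.65), Capzb (-1.45) and Cap1 (-1.33) of 13 genes of turnover were lower in the ER, as were Tagln2 (-2.22) and Tpm4 (-1.65) of 8 tropomyosins and calponins. Arpc3 (-1.37), Pdlim1 (-1.53) and Lims1 (-1.43) were lower too. Higher in the ER were Vcl (3.34), the formin Diap1 (1.98), the filamin Flnc (1.84), and Marcks (1.40). After thapsigargin the ratio fell for Vcl (-3.27) and Iqgap1 (-1.21) and rose for Wasf2 (2.13). In the mRNA comparisons and in footprints per mRNA 0 genes of these lists were called.

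The footprint profile of Actb was closest to that of Dstn, destrin, a relative of cofilin. Over 19 footprint libraries, each centred by fraction, Pearson's r with Actb was 0.94 for Dstn, 0.88 for Actg1, 0.87 for the myosin light chain Myl9, 0.85 for Prdx2 and 0.83 for the locus LOC100862012. These were the 5 highest of 1222 genes listed in every footprint library with a mean of at least 50 RPKM, and the median r of Actb with all of them was 0.05. The points share libraries, depth and, for the actins, near-identical sequence. Among the 9 members in every footprint library, r over their 36 pairs ran from -0.25 for Cfl1 and Pfn1 to 0.88 for Actb and Actg1, with a median of 0.43. Twf1 was not listed in every footprint library and has no such value.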

How the data were processed

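Footprints and mRNA came from 40 samples in 1 table of 22417 genes, of which 39 have values. The submitters' processing notes name Bowtie and the build hg19, although the gene symbols are those of mouse; other steps are not given in the sources used here. The values were taken as RPKM as deposited by the authors, from the values themselves: they are whole multiples of 1 read per coding length for 100% of the 13206 genes listed in at least 2 libraries, to within 2e-05 reads plus a share of 1e-08. In each pair of ER and cytosol libraries the implied weights sum to about 1, so RPKM appear to be relative to both fractions together. Footprint libraries and replicate 1 of mRNA list genes from 4 reads, replicate 2 of mRNA from 1 read.

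Comparisons used limma 3.58.1 in R 4.3.3 on log2(RPKM + 1), with a mean-variance trend, over genes whose mean reached 1 RPKM and that had a value in every library compared. This understates the change of low genes. P-values were adjusted by Benjamini-Hochberg over all such genes, and 0.05 was the threshold. The main contrast was the mean of 1, 2 and 4 h minus untreated; ER over cytosol, its change, and footprints minus mRNA were fitted likewise, and the comparison of 4 h with 1 h was added after the data were seen. The fit was checked on simulated reads for 1 comparison only, cytosol footprints over 1, 2 and 4 h. Those libraries were independent, with no effect of the replicate number, and the other comparisons were not simulated. The genes named are the members, and genes of the other lists past the threshold, of which some are not reported here. The members and lists were chosen with earlier results of these data known. Alternatives were a pseudocount of 0.1, no filter, blanks read as 0, median centring, libraries scaled to their own totals, a replicate block and each library left out. Intervals for counting error are not given, since reads without molecular identifiers are not independent molecules.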

Additional observations from a re-analysis of the deposited data

How the results depend on the processing

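Of 1330 log2 changes of members under alternatives, 1236 kept their direction and their side of the threshold, 56 changed sign, 21 lost a call and 17 gained one. Each group has 2 libraries, so leaving one out leaves a lone sample that is assumed to vary like the other groups, and this lowered the counts most. With a library left out, ER footprints gave 317 to 817 genes called (746 with all) and 0 to 1 members, the lowest without untreated replicate 2. Cytosol footprints gave 74 to 832 genes (772 with all) and 0 to 2 members, the lowest count of genes without untreated replicate 2. The untreated ER and cytosol comparison gave 201 to 1087 genes and 0 to 2 members, the change of that ratio 23 to 317 genes, ER footprints at 4 h against 1 h 0 genes, ER footprints per mRNA 0 to 25 and cytosol footprints per mRNA 1 to 2.

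The log2 changes that changed sign when a library was left out are given as ranges; none was called with all libraries. In ER footprints they were Acta2 -0.56 to 0.057, Tmsb4x -0.29 to 1.40, Tpm1 -0.021 to 0.36 and Tagln -0.045 to 0.65. In cytosol footprints they were Actb -0.86 to 0.34, Actg1 -0.39 to 0.033, Acta2 -0.47 to 0.52, Cfl1 -0.11 to 0.80, Pfn1 -0.19 to 0.18, Tmsb4x -0.47 to 1.16 and Tagln -0.56 to 0.0045. The change of the fraction ratio gave Actb -0.13 to 1.07, Acta2 -0.77 to 0.22, Cfl1 -0.0042 to 0.90 and Tmsb4x -0.63 to 1.06. At 4 h against 1 h the ER gave Cfl1 -1.23 to 0.18, Pfn1 -0.64 to 0.50 and Tagln -1.04 to 0.22, and the cytosol Pfn1 -0.89 to 0.13. ER mRNA gave Actb -0.25 to 0.12, Actg1 -0.72 to 0.18, Cfl1 -0.36 to 0.31, Tmsb10 -0.84 to 0.036, Tpm1 -0.36 to 0.28 and Tagln -0.15 to 0.087. ER footprints per mRNA gave Tpm1 -0.11 to 0.53 and Tagln -0.011 to 0.68.

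With blanks read as 0, 0 members were called in ER and in cytosol footprints and in the untreated comparison, and the genes called were 415 in cytosol footprints, 530 in the untreated comparison, 10 in the ER at 4 h against 1 h, 15 in ER and 2 in cytosol footprints per mRNA. ER footprints then split into 193 genes up and 690 down, beside 449 and 297. Median centring gave 638 genes and 0 members in the untreated comparison (483 up and 155 down, beside 465 and 500), 0 genes in the ER at 4 h against 1 h and 11 in ER footprints per mRNA. It turned Pfn1 in cytosol footprints to 0.0041, Acta2 in ER mRNA to -0.087 and Acta2 in ER footprints per mRNA to 0.62. It moved the median of all genes from -0.79 to -0.56 in the untreated comparison and from -0.71 to -0.12 in cytosol mRNA. Libraries scaled to their own totals gave 608 genes (470 up and 138 down) and 0 members in the untreated comparison, 0 genes in the ER at 4 h against 1 h, and 572 up and 207 down in ER footprints. That scaling turned Acta2 in cytosol footprints to -0.030, and in ER mRNA Actb to 0.027, Cfl1 to 0.066, Tpm1 to 0.055 and Tagln to 0.062. In the untreated comparison 2 members were called with a pseudocount of 0.1 and 0 with no filter. The cause of these changes was not tested.

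The replicate numbers pair samples by no label. Deviations from group means of samples with the same number correlated at 0.18 to 0.38 over time in ER footprints, -0.19 to 0.63 in cytosol footprints, 0.35 to 0.70 in ER mRNA and 0.61 to 0.74 in cytosol mRNA. With a replicate block, 2 members were called in ER footprints (Tmsb10 and Cfl1), and 1212 genes in cytosol footprints. The block gave 1828 genes and 6 members in the untreated comparison, 198 genes and 1 member (Tmsb4x) in the ER at 4 h against 1 h, 378 genes and 8 members in cytosol mRNA, 10 genes in ER and 3 in cytosol footprints per mRNA. Few reads in Twf1 and in ER mRNA at 0.5 h limit what can be read there.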
